A study of Mus musculus with 2 samples.

Results

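Mucin-type O-glycosylation was described here through 39 enzyme genes, from the transferases that start the sugar chain to those that extend, cap and sulfate it. The genes were taken by name from a list of the pathway, chosen with earlier results of these data known. All 39 were found by their Ensembl identifier among 43346 Ensembl genes, of which 21461 were nuclear protein-coding genes.

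O-glycans of this kind begin in the Golgi, where a polypeptide GalNAc-transferase links N-acetylgalactosamine (GalNAc) to a serine or threonine of the protein. A core structure is then built by adding galactose (core 1) or N-acetylglucosamine (core 3), which can be branched, extended and finally capped with fucose, sialic acid, GalNAc or sulfate. In the colon these chains cover the mucins of the mucus layer and of the cell surface, and they are known to set the gel's properties and to shield the protein from bacterial enzymes.

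The tissue was the sigmoid colon of 1 adult female C57BL/6J mouse, 10 weeks old, with no treatment named in the labels. Polyadenylated RNA was sequenced in 2 technical libraries of that 1 biological replicate. They are named here library 1 and library 2 by their technical replicate number. The labels say that library 2 was made in 2015 and was no part of the originally published set. All values therefore describe 1 mouse, and ± is the SD over the 2 technical libraries (n = 2), not over animals. Whole tissue was used, so fewer cells of a type and less RNA per cell cannot be told apart.

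The gene tables summed to 25843064 expected counts for library 1 and to 20681574 for library 2. The 39 enzymes took 0.363% (95% Wilson interval 0.361 to 0.366%) and 0.514% (0.511 to 0.517%) of those sums. These intervals, and a floor of 3 counts that stands for a count of 0, cover counting error only. Mitochondrially encoded genes, together with 7 nuclear copies of them, held 33.9% of the counts in library 1 and 8.42% in library 2. A copy shares at least 50% of its 31-base words with them. Both kinds are left out where nuclear genes are counted. The colon's own marker genes were present: 9 of 9 goblet, 8 of 8 colonocyte, 9 of 10 general epithelial and 8 of 8 smooth muscle markers reached 1 TPM (transcripts scaled to a fixed total, a level corrected for transcript length) in both libraries. On TPM the summed level of all 9 marker lists was higher in library 2. Rescaled over nuclear protein-coding genes, 6 lists were higher in library 2, at 15052 and 40520 TPM for goblet, 16176 and 23512 for colonocyte, 4063 and 11926 for epithelial, 1292 and 7580 for smooth muscle, 70.8 and 92.1 for endothelial and 226 and 3720 for red blood cell markers. The other 3 were lower, at 2367 and 1293 TPM for fibroblast, 1681 and 1186 for immune and 213 and 104 for neuron and glia markers. Their part in the results below was not tested.

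The libraries differed along base composition, so coding sequence is shown for the tested enzymes whose whole transcripts have the lowest and the highest GC content. By coding sequence alone the extremes are C1galt1 (38.9%) and B3gnt6 (64.7%). Both runs are the first 120 bases of the coding sequence in the GENCODE M21 transcript with the highest level, on build GRCm38, with G and C in capitals. B3gnt5 lies at chr16:19760208-19772753 on the + strand and St6galnac6 at chr2:32599709-32620806 on the + strand.
B3gnt5: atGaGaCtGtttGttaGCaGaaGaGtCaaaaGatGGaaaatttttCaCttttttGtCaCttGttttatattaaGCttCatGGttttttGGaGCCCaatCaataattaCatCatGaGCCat
St6galnac6: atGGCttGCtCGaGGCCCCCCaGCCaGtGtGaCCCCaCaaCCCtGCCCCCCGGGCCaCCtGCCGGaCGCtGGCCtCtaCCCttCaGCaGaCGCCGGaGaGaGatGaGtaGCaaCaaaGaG
The B3gnt5 run holds 31.7% G and C, and the St6galnac6 run holds 65.8%. Over the whole gene, as its transcripts weighted by their level, the values were 38.4% and 57.2%. B3gnt5 was called lower and St6galnac6 higher in library 2, as described below.

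Promoter sequence showed another kind of variety. Of the 39 enzymes, 27 had at least 1 window in the RefSeq promoter table of GRCm38.p6, and their 38 windows held between 0 and 52 CG dinucleotides in 300 bases, with a median of 17 against 7 over all 32851 windows. The 250 bases before the start are shown for the 3 enzymes with the highest mean level among those with a transcript start within 100 bases of the window's start site and no annotated exon in those bases. They are printed 5′ to 3′ on the gene's own strand, which is the − strand for all 3, with CG in capitals. The windows of St6galnac6 and B3gnt7, which have high mean levels too, overlap annotated exons. The positions are chr16:58524254-58524503 for St3gal6, chr8:57653056-57653305 for Galnt7 and chr8:71701801-71702050 for B3gnt3.
St3gal6: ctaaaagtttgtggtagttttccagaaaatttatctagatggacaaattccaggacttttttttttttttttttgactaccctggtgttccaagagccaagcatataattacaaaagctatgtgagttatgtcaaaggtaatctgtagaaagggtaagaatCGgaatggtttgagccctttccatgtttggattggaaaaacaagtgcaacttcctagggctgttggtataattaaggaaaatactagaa
Galnt7: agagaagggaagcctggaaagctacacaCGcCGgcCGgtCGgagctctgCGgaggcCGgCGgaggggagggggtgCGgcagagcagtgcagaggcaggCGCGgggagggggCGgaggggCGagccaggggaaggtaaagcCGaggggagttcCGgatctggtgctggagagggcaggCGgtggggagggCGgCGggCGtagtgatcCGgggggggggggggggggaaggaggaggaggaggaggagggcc
B3gnt3: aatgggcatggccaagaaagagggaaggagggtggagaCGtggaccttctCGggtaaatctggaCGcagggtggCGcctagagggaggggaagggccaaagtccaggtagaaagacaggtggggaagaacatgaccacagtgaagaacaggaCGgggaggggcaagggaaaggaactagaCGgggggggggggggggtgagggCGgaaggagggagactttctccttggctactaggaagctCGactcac
The St3gal6 stretch holds 1 CG and 34.8% G and C, the Galnt7 stretch 19 and 73.6%, and the B3gnt3 stretch 8 and 60.0%. The motif known to bind Sp1, GGGCGG read on either strand, occurred in 22 of the 38 windows, or 57.9%, against 35.7% of all windows. The core promoter box, TATAAA read on either strand, occurred in 1 of the 38 windows, which is 2.63% against 13.6% of all windows. That window belongs to Gcnt1, and no quantified Gcnt1 transcript starts within 100 bases of its start site. The set of all windows covers 27025 genes, whatever their level in this tissue, and some enzymes have more than 1 window. The contrasts in CG, GGGCGG and TATAAA are therefore descriptions and were not tested.

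Most of the pathway was present in this colon. At 1 TPM or more in both libraries stood 34 of the 39 enzymes (87.2%), against 46.9% of all nuclear protein-coding genes, and 23 reached 10 TPM in both. The median enzyme lay at the 84.3rd percentile of nuclear protein-coding genes in library 1 and at the 88.7th in library 2. Since the enzymes were chosen with earlier results of these data known, these comparisons with all genes are descriptions only. The highest mean levels belonged to St6galnac6 (395 ± 509 TPM), St3gal6 (189 ± 49.8 TPM), B3gnt7 (178 ± 227 TPM), St3gal4 (152 ± 124 TPM) and C1galt1 (125 ± 76.3 TPM). The SD was larger than the mean for St6galnac6 and B3gnt7, so their place at the top rests on library 2.

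The order of the 39 levels was loose. Of the 38 pairs that stand next to each other by mean level, 34 had ranges that overlapped over the 2 libraries and cannot be put in order. The 4 gaps without overlap lay between Fut8 and Galnt4, between St3gal2 and Gcnt4, between Gcnt4 and St6galnac3, and between Chst5 and St6galnac1. Across the 39 enzymes the Spearman correlation of the levels in the 2 libraries was 0.68, as a description of libraries that share 1 mouse.

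**Figure D1:**
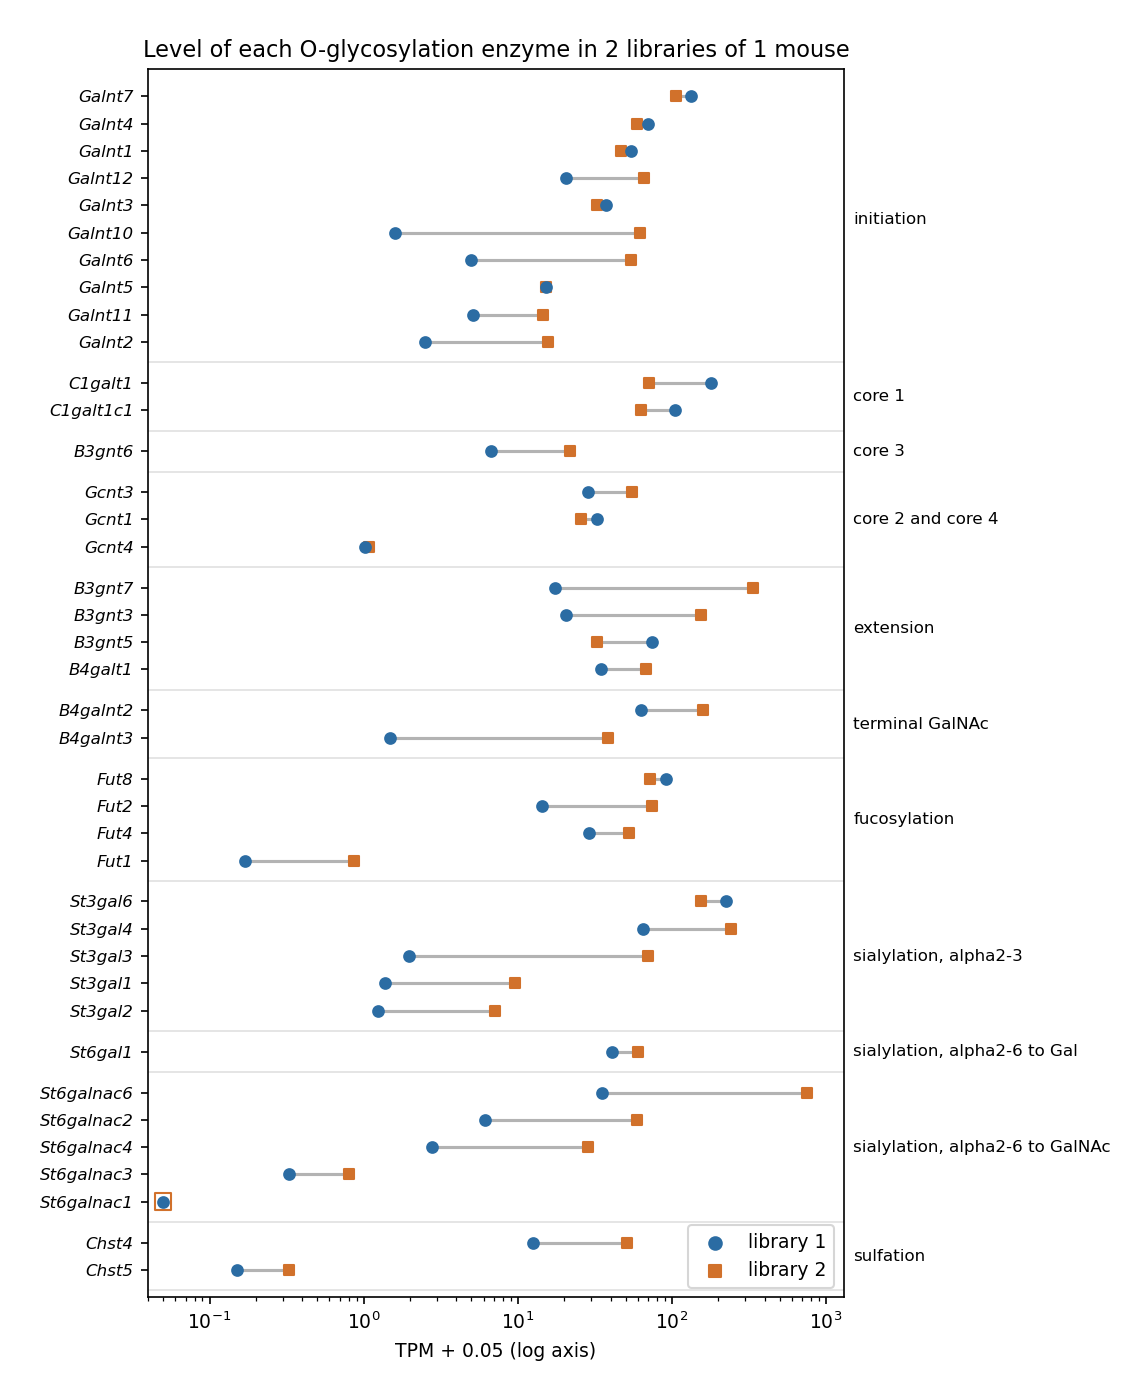
Level of each of the 39 enzymes in TPM (log axis, 0.05 added so that 0 can be drawn), grouped by step of the pathway. The circle is library 1, the square is library 2 and the grey line joins them, and the longest lines belong to Galnt10, St3gal3, B4galnt3, St6galnac6 and B3gnt7.

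The libraries were compared gene by gene with a two-sided exact binomial test of their counts, given library sizes scaled by TMM (trimmed mean of M-values). A gene was called at a Benjamini-Hochberg adjusted p under 0.05 over the 15711 genes tested and a difference of at least 2-fold. This compares 2 libraries and not 2 conditions, and SEs beside log2 ratios cover counting only. Of the 39 enzymes 36 had a mean count of at least 10 and were tested, and St6galnac3, Chst5 and St6galnac1 were not.

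In library 2, 14 of the 36 were called higher, where 36.9% of all tested genes were called higher, and 12 were called lower, where 28.1% of all were. As shares of the tested enzymes these are 38.9% and 33.3%, near the background in both directions. The higher set comprised Galnt2, Galnt6, Galnt10, B3gnt3, B3gnt7, B4galnt3, Fut1, Fut2, St3gal1, St3gal2, St3gal3, St6galnac2, St6galnac4 and St6galnac6. The lower set comprised Galnt1, Galnt3, Galnt4, Galnt5, Galnt7, C1galt1, C1galt1c1, Gcnt1, Gcnt4, B3gnt5, Fut8 and St3gal6. The median log2 ratio was 0.45 over the enzymes and 0.12 over all genes.

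These sets did not overlap in GC content. The 14 higher enzymes had transcripts of 50.8 to 57.2% G and C, the 12 lower ones 38.4 to 45.9%, and the 10 that were not called 46.4 to 56.2%. Across the 36 enzymes the Spearman correlation between GC content and log2 ratio was 0.89, and across 15664 genes it was 0.90, a description of genes that share the same 2 libraries. The correlation was 0.79 with the GC content of the coding sequence alone and 0.90 with that of the untranslated remainder of the same transcript, but 0.03 with that of the promoter window over the 25 tested enzymes that have one. Whether base composition accounts for the differences was not tested beyond the adjustment that follows.

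When the trend of the log2 ratio with GC content over all tested genes was taken off, 29 of the 36 enzymes were not called. Galnt2 and Galnt11 were then higher (12.4% of all genes were), and Galnt12, B3gnt6, Fut4, St3gal2 and St6galnac4 were lower (11.1% of all genes were). Of the 26 enzymes called before, only Galnt2 kept both its call and its direction, and St3gal2 and St6galnac4 turned from higher to lower. The trend-off value of Galnt2 depends on the GC content assigned to that gene, which is described with its levels below. The spread of the 36 log2 ratios (SD over enzymes) fell from 1.98 to 1.02, and over all genes from 2.46 to 1.25.

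The scale also bears on direction. On plain TPM, which counts mitochondrial transcripts in its total, the median ratio of all genes moved to 1.17 on the log2 scale and that of the enzymes to 1.60, and 20 enzymes stood at least 2-fold higher (53.3% of all genes did) and 2 lower (5.29% did). The 2 were C1galt1 and B3gnt5. Ratios between enzymes within a library do not depend on this scale, and they are given below for that reason.

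**Figure D2:**
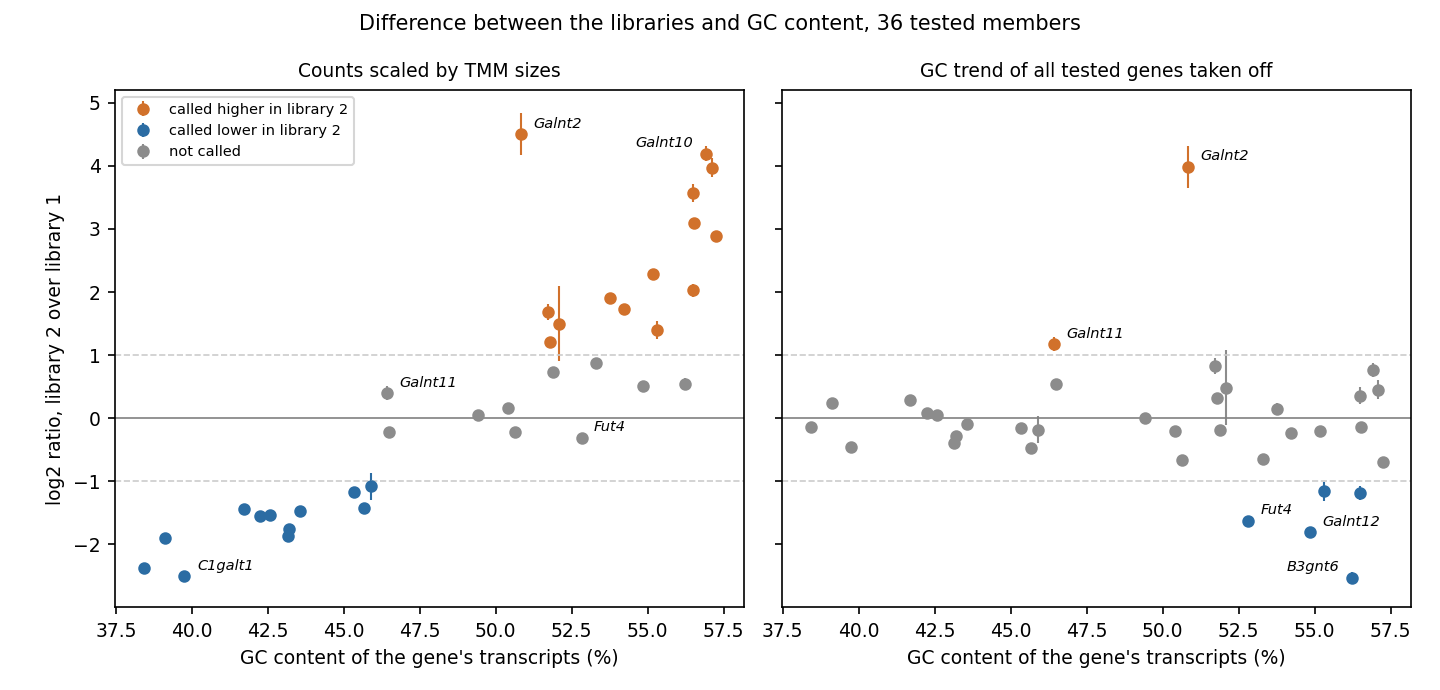
Log2 ratio of library 2 over library 1 (vertical axis) against the GC content of the gene's transcripts in percent (horizontal axis) for the 36 tested enzymes, with TMM-scaled counts on the left and with the trend of all tested genes taken off on the right. Points are enzymes, bars are counting SEs and dashed lines mark 2-fold, and on the left the lower enzymes lie at 38.4 to 45.9% and the higher at 50.8 to 57.2%.

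The weight of the steps in the summed mRNA level shifted between the libraries. Glycans were not measured. In library 1 the largest shares of the summed enzyme level (1435 TPM) belonged to initiation (24.0%), alpha2-3 sialylation (20.5%) and core 1 synthesis (19.8%). In library 2 (3133 TPM) they belonged to alpha2-6 sialylation of GalNAc (26.9%), chain extension (18.9%) and alpha2-3 sialylation (15.3%). Relative to nuclear protein-coding genes alone, the sums were closer, at 4579 and 4159 TPM rescaled over those genes.

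Of the 9 steps with 2 or more enzymes, 5 had the same leading enzyme in both libraries, namely Galnt7, C1galt1, B4galnt2, St6galnac6 and Chst4. The lead passed from Gcnt1 to Gcnt3 in branching, from B3gnt5 to B3gnt7 in extension, from Fut8 to Fut2 in fucosylation and from St3gal6 to St3gal4 in alpha2-3 sialylation. In all 4 the enzyme that led in library 2 had the higher GC content. With the GC trend taken off the TPM of library 2, an alternative chosen after the data had been seen, 7 of the 9 steps had the same leader.

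**Figure D3:**
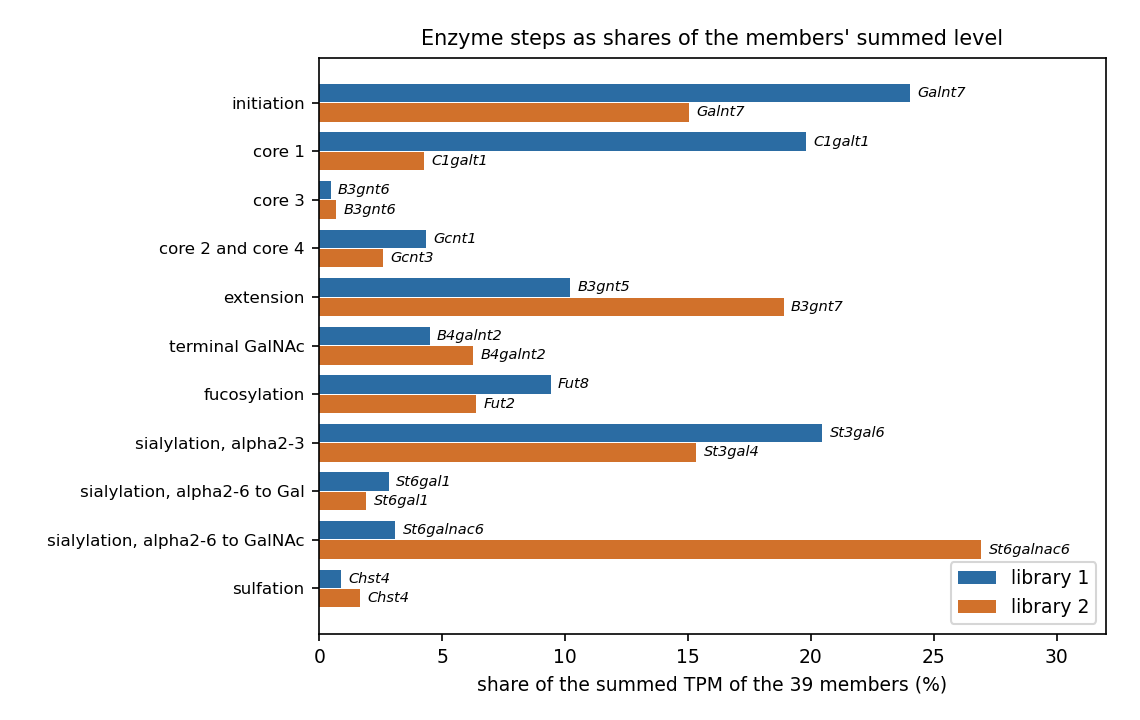
Share of each step in the summed TPM of the 39 enzymes, in percent, for library 1 (blue) and library 2 (orange), with the leading enzyme of the step at the end of each bar. Alpha2-6 sialylation of GalNAc took 3.09% in library 1 and 26.9% in library 2, and core 1 synthesis 19.8% and 4.28%.

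Enzymes of the same step were also compared in pairs within each library. Among enzymes at 1 TPM or more in both libraries, 13 pairs within a step differed by at most 2 points of GC content. The same enzyme was the higher of the pair in both libraries for 11 of these 13, and their level ratio shifted by a median of 2.05-fold. In the other 57 pairs it was the same for 33, and the ratio shifted by a median of 5.02-fold. Pairs share enzymes, so these counts are a description, and the difference between them was not tested.

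Initiation was spread over 10 GalNAc-transferases, which add the GalNAc that starts every chain. Galnt7, which prefers peptides that already carry a GalNAc, was the highest at 133 TPM in library 1 and 106 TPM in library 2. Galnt4, another transferase that acts on such glycopeptides, stood at 70.2 and 59.1 TPM, and Galnt1, a broadly expressed transferase, at 54.5 and 46.8 TPM. Galnt3, known for protecting the hormone FGF23 from cleavage, stood at 37.4 and 32.5 TPM.

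These 4 transferases, with Galnt5 at 15.2 and 15.2 TPM, were called lower in library 2 on counts, with log2 ratios between −1.75 (Galnt3) and −1.17 (Galnt5). All 5 have a GC content of 41.7 to 45.7%, and with the trend taken off their ratios lay between −0.47 (Galnt4) and 0.28 (Galnt1), with no call. Galnt5 was also not called with totals of nuclear genes as library sizes (−0.89). Their levels relative to each other were steady. Galnt7 was 2.44-fold the level of Galnt1 in library 1 and 2.28-fold in library 2, and it was 3.55-fold and 3.28-fold the level of Galnt3. It was 1.89-fold and 1.80-fold the level of Galnt4.

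Galnt10 and Galnt6 have GC-rich transcripts and were the initiators of 55% G and C or more. Galnt10, which also prefers glycopeptides, stood at 1.55 TPM in library 1 and 61.6 TPM in library 2 (158 and 3911 counts). Its log2 ratio was 4.20 ± 0.12 (counting SE), or 18.3-fold, at a GC content of 56.9%, and 0.76 with the trend taken off, where it was not called. Galnt6 stood at 4.94 and 54.0 TPM, a log2 ratio of 2.28, which became −0.20 with the trend off. The antisense gene Galnt6os, which overlaps it, had 2 and 37 counts, and the sources used here do not say whether the authors counted by strand. Galnt4 overlaps Poc1b on the same strand (594 and 550 counts), and St3gal4, St3gal6 and St6galnac2 overlap genes on the opposite strand that had 154 and 175, 664 and 525, and 55 and 190 counts, so reads could be split between these too.

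Galnt12, a transferase known from the digestive tract, stood at 20.6 and 65.9 TPM and was not called on counts (log2 ratio 0.51). It was called lower with the GC trend off, at −1.81, and its ratio was −0.01 with the length trend off. Its level relative to Galnt6, which differs by 0.31 points in GC content, was 4.17-fold in library 1 and 1.22-fold in library 2. Galnt11 went the other way, at 5.07 and 14.6 TPM with a log2 ratio of 0.40, not called, and 1.17 with the GC trend off, called higher (exact binomial test, adjusted p = 3.17e-25).

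Galnt2, a broadly acting transferase, stood at 2.44 and 15.6 TPM. Its counts were 18.92 in library 1 and 594.94 in library 2, a log2 ratio of 4.50 ± 0.33, or 22.7-fold, and 3.99 with the GC trend off. These are the largest of the 36 on counts, but on TPM its ratio was below the 39.7 of Galnt10, the 36.4 of St3gal3 and the 26.7 of B4galnt3, among others. The value is uncertain, since Galnt2 shares its sequence with a readthrough gene on the same strand, Gm20388, which was given 110.08 and 757.06 counts. In library 1 all of the Galnt2 level lay on a short transcript with no coding sequence (described with the transcripts). The GC content used for Galnt2, 50.8%, weights by TPM this short transcript of 44.4% and a coding one of 55.9%. In library 2 the coding one held 568.4 of the 594.94 counts. The ratio with the trend taken at 55.9% was not tested, so the trend-off value of Galnt2 is uncertain too.

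Core 1 synthesis needs C1galt1, the galactosyltransferase that makes the core 1 disaccharide, and C1galt1c1 (Cosmc), the chaperone without which that enzyme does not fold. C1galt1 stood at 179 TPM in library 1 and 70.9 TPM in library 2, and C1galt1c1 at 105 and 63.2 TPM. Both were called lower in library 2, with log2 ratios of −2.50 ± 0.03 and −1.90 ± 0.05, and C1galt1 had the lowest ratio of the 36 enzymes. Their GC contents are 39.8% and 39.1%, and with the trend off the ratios were −0.46 and 0.23, neither called. The level of the enzyme was 1.70-fold that of its chaperone in library 1 and 1.12-fold in library 2.

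Core 3 synthesis rests on B3gnt6, the only known core 3 synthase, which acts in the colon. It stood at 6.65 and 21.8 TPM, below C1galt1 in both libraries, by 26.9-fold in library 1 and 3.25-fold in library 2. The pair differs by 16.5 points in GC content (B3gnt6 56.2%). B3gnt6 was not called on counts (349 and 686 counts, log2 ratio 0.54 ± 0.09), and it had the lowest ratio of all with the GC trend off, −2.53, called lower (exact binomial test, adjusted p = 2.40e-119). Against B3gnt7, an extension enzyme within 0.30 points of GC content, B3gnt6 was lower by 2.61-fold in library 1 and 15.5-fold in library 2.

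Branching to core 2 and core 4 is done by the Gcnt enzymes. Gcnt1, the core 2 enzyme first known from leukocytes, stood at 32.8 and 25.7 TPM, and Gcnt3, the mucin-type enzyme that can make both core 2 and core 4, at 28.4 and 55.1 TPM. Gcnt4 was near the limit of 1 TPM, at 0.97 and 1.03 TPM. Gcnt1 was called lower in library 2 (log2 ratio −1.56 ± 0.04, 0.08 with the GC trend off). Gcnt3 was not called, and the sign of its ratio depended on the scale, at −0.21 with TMM, 0.07 with totals of nuclear genes as library sizes, 0.54 with the GC trend off and 0.96 on TPM. Gcnt4 was called lower on 115 and 73 counts (−1.08 ± 0.22, exact binomial test, adjusted p = 6.68e-07), and was not called with totals of nuclear genes or with the length trend off (−0.80 in both). Its TPM ratio was 0.09 on the log2 scale.

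Chain extension alternates N-acetylglucosamine and galactose. B3gnt7, which builds N-acetyllactosamine chains of the keratan sulfate kind, stood at 17.4 TPM in library 1 and 338 TPM in library 2. B3gnt3, which extends core 1 and makes chains that L-selectin binds, stood at 20.7 and 154 TPM. B3gnt5, better known for starting the lacto-series glycolipids, stood at 73.7 and 32.5 TPM.

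Each of the 3 was called, B3gnt7 and B3gnt3 higher in library 2 (log2 ratios 3.10 ± 0.05 and 1.73 ± 0.05) and B3gnt5 lower (−2.37 ± 0.04). None was called with the GC trend off, where the ratios were −0.13, −0.24 and −0.14. B4galt1, the galactosyltransferase that completes each N-acetyllactosamine unit, stood at 34.8 and 67.5 TPM and was not called. Its ratio was −0.22 with TMM, 0.06 with totals of nuclear genes and 0.95 on TPM.

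Terminal GalNAc is added by 2 enzymes. B4galnt2, which makes the Sda/Cad antigen and is known for its strain-dependent expression in mouse gut, was the fourth highest enzyme of library 2, at 63.0 TPM in library 1 and 158 TPM in library 2. It was not called (log2 ratio 0.16, and −0.21 and −0.62 with the GC and the length trend off). It stayed above B4galt1, an enzyme within 0.22 points of its GC content, by 1.81-fold and 2.34-fold. B4galnt3, which makes the LacdiNAc unit, stood at 1.43 and 38.2 TPM and was called higher in library 2 (3.57 ± 0.14, 0.36 with the GC trend off).

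Fucosylation of these chains in the gut is attributed mainly to Fut2, the secretor enzyme, which adds alpha1-2 fucose. Fut2 stood at 14.3 and 74.1 TPM and was called higher (log2 ratio 1.21 ± 0.05). It was not called with the GC trend off (0.33) or the length trend off (0.91). Its neighbour Fut1, which makes the same linkage in other cells and lies 27.5 kb away on chromosome 7, was at 0.12 and 0.81 TPM, on 7 and 28 counts. Fut2 was thus 119-fold and 91.5-fold the level of Fut1, with a GC content of 51.8% against 52.1%. Fut1 was called higher on its few counts (2.82-fold, exact binomial test, adjusted p = 0.0103), but not with the GC trend off (log2 ratio 0.48) or the length trend off (1.08), and a mean count of at least 50 as the limit removed it.

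Fut4, an alpha1-3 fucosyltransferase that makes Lewis x structures, stood at 28.8 and 52.4 TPM. It was not called on counts (−0.31 ± 0.04) and was called lower with the GC trend off (−1.63), while its TPM ratio was 0.86. Fut4 was 2.02-fold the level of Fut2 in library 1, and Fut2 was 1.41-fold the level of Fut4 in library 2. Fut8, which fucosylates the core of N-glycans and so serves other chains, stood at 91.8 and 72.2 TPM and was called lower (−1.48 ± 0.03, −0.09 with the GC trend off).

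The mRNA level of the alpha2-3 sialylation step lay mainly with St3gal6 and St3gal4, which cap N-acetyllactosamine ends. St3gal6 was the highest of all 39 enzymes in library 1, at 225 TPM, and stood at 154 TPM in library 2. St3gal4 stood at 64.4 and 240 TPM. St3gal6 was 3.49-fold the level of St3gal4 in library 1, and St3gal4 was 1.56-fold the level of St3gal6 in library 2, with 43.1% and 51.9% G and C. St3gal6 was called lower (−1.87 ± 0.03, −0.40 with the GC trend off) and St3gal4 was not called (0.73 ± 0.03, −0.20 with the GC trend off). With totals of nuclear genes St3gal4 was called higher, at 1.01.

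St3gal1 and St3gal2, which act on core 1 itself, were low. St3gal1 stood at 1.32 and 9.56 TPM and St3gal2 at 1.18 and 7.05 TPM. Both were called higher in library 2 on counts, at 1.69 ± 0.13 and 1.40 ± 0.15. With the GC trend off St3gal1 was not called (0.83) and St3gal2 was called lower (−1.16, exact binomial test, adjusted p = 3.99e-12). St3gal3, which also caps N-acetyllactosamine ends, stood at 1.91 and 69.5 TPM (97 and 2063 counts), a log2 ratio of 3.97 ± 0.15 that became 0.45 and lost its call.

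Alpha2-6 sialylation of galactose rests on St6gal1, which acts mostly on N-glycans. It stood at 40.7 and 60.1 TPM and was the enzyme whose libraries differed least in scaled counts, with a log2 ratio of 0.04 ± 0.04 (exact binomial test, adjusted p = 0.336). The sign depended on the scale, at −0.01 with DESeq2 size factors, −0.0014 with the GC trend off and −0.27 with the length trend off.

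By mRNA level, the step of alpha2-6 sialylation of GalNAc was mostly St6galnac6, a transferase also known for making disialylated chains. Which chains this enzyme acted on was not measured. It stood at 35.2 TPM in library 1 and 756 TPM in library 2 (1781 and 17840 counts), which made it the 13th and the 1st of the 39 enzymes. It was called higher (2.89 ± 0.04, 7.44-fold) and not called with the GC trend off, where its ratio was −0.70. It held 79.5% of the step in library 1 and 89.5% in library 2.

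St6galnac4, which adds sialic acid to sialylated core 1, lies 10 bases upstream of St6galnac6 on the same strand of chromosome 2. It stood at 2.73 and 28.6 TPM, so that St6galnac6 was 12.9-fold and 26.5-fold its level, with GC contents of 57.2% and 56.5%. St6galnac4 was called higher on counts (2.02 ± 0.11) and lower with the GC trend off (−1.19, exact binomial test, adjusted p = 4.29e-22). St6galnac2, which acts on core 1 and on GalNAc, stood at 6.09 and 58.9 TPM and was called higher (1.90 ± 0.08, 0.15 with the GC trend off).

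The remaining enzymes of this step were at the limit of detection. St6galnac1, the transferase that makes sialyl-Tn and lies 70.2 kb from St6galnac2 on chromosome 11, was listed at 0 counts in both libraries, which allows up to 3 counts, or 0.116 and 0.145 CPM (library counts scaled as TPM is, without length). St6galnac3 had 5 and 8 counts (0.28 and 0.75 TPM). Neither entered the test.

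Sulfation was represented by 2 N-acetylglucosamine 6-O-sulfotransferases. Chst4 stood at 12.5 and 51.2 TPM (543 and 1339 counts) and was not called (0.87 ± 0.07, −0.65 with the GC trend off), but it was called higher with totals of nuclear genes as library sizes (1.15). Chst5, known as the intestinal enzyme of this kind, had 4 and 7 counts (0.10 and 0.28 TPM) and was not tested. Chst4 thus held 99.2% and 99.5% of the summed level of the pair.

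Transcript use differed between the libraries in several enzymes. Transcript shares, in percent of the gene's transcript TPM, were described for the 13 enzymes with a mean of at least 5 TPM and at least 2 transcripts of at least 10% mean share. The transcript with the largest share was the same in both libraries for 8 of them (B3gnt5, Fut8, Galnt3, Galnt11, Gcnt1, St3gal6, St6galnac4 and St6galnac6) and another for 5 (B4galnt3, Galnt2, St3gal3, St6gal1 and St6galnac2). The shares are model estimates by the authors' quantifier and carry no test here. For these 5, the deposited TPM bounds of the leading transcripts were compared, as a description. Some bounds do not hold the TPM itself, such as 37.07 to 41.35 for ENSMUST00000178797.3 of St6gal1 in library 2, at 41.95 TPM. The bounds are given next. They overlapped in library 1 for B4galnt3 (0.079 to 1.31 and 0.020 to 1.30 TPM) and St3gal3 (0.042 to 1.12 and 0.59 to 1.65 TPM). They overlapped in library 2 for Galnt2 (2.37 to 8.63 and 5.30 to 12.0 TPM), and in neither library for St6gal1 and St6galnac2.

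St6galnac6 combined 2 starts. Transcript ENSMUST00000072111.3, which starts at chr2:32608071, held 71.8% in library 1 and 58.6% in library 2. Transcript ENSMUST00000131229.3 starts at chr2:32599709, next to the end of St6galnac4, and held 0% in library 1 and 31.9% (241 TPM) in library 2. The retained-intron transcript ENSMUST00000149220.1 held 28.2% and 2.75%.

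Galnt2 was read from a 511-base processed transcript, ENSMUST00000147911.1, for 100% of its level in library 1 and 35.6% in library 2. The coding transcript ENSMUST00000034458.8, of 55.9% G and C, was listed at 0 in library 1 and held 64.4% in library 2, at 10.1 TPM. In St6gal1 the 627-base transcript ENSMUST00000144919.1 held 56.6% in library 1 and 24.5% in library 2, and the coding transcript ENSMUST00000178797.3 held 43.4% and 69.8%. In these 2 enzymes the longer form, annotated as coding, took the larger share in library 2. ENSMUST00000144919.1 is absent from GENCODE M21, so its type and position are not given and the GC content of St6gal1 leaves it out. It stood at 23.0 TPM on 243 counts in library 1.

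In St3gal6 the leading transcript ENSMUST00000114357.5 held 77.3% in library 1 and 36.4% in library 2, and ENSMUST00000114358.4 held 16.0% and 34.0%. In Gcnt1, transcript ENSMUST00000169897.1 held 38.6% in library 1, with wide bounds of 1.68 to 24.9 TPM, and was listed at 0 in library 2. In B4galnt3 the coding transcript ENSMUST00000057283.7 held 38.4% and 74.2%, and in St3gal3 transcript ENSMUST00000106410.3 held 27.1% and 64.0%. In B3gnt5 the shares were close, with ENSMUST00000079780.5 at 72.6% and 74.9%.

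**Figure D4:**
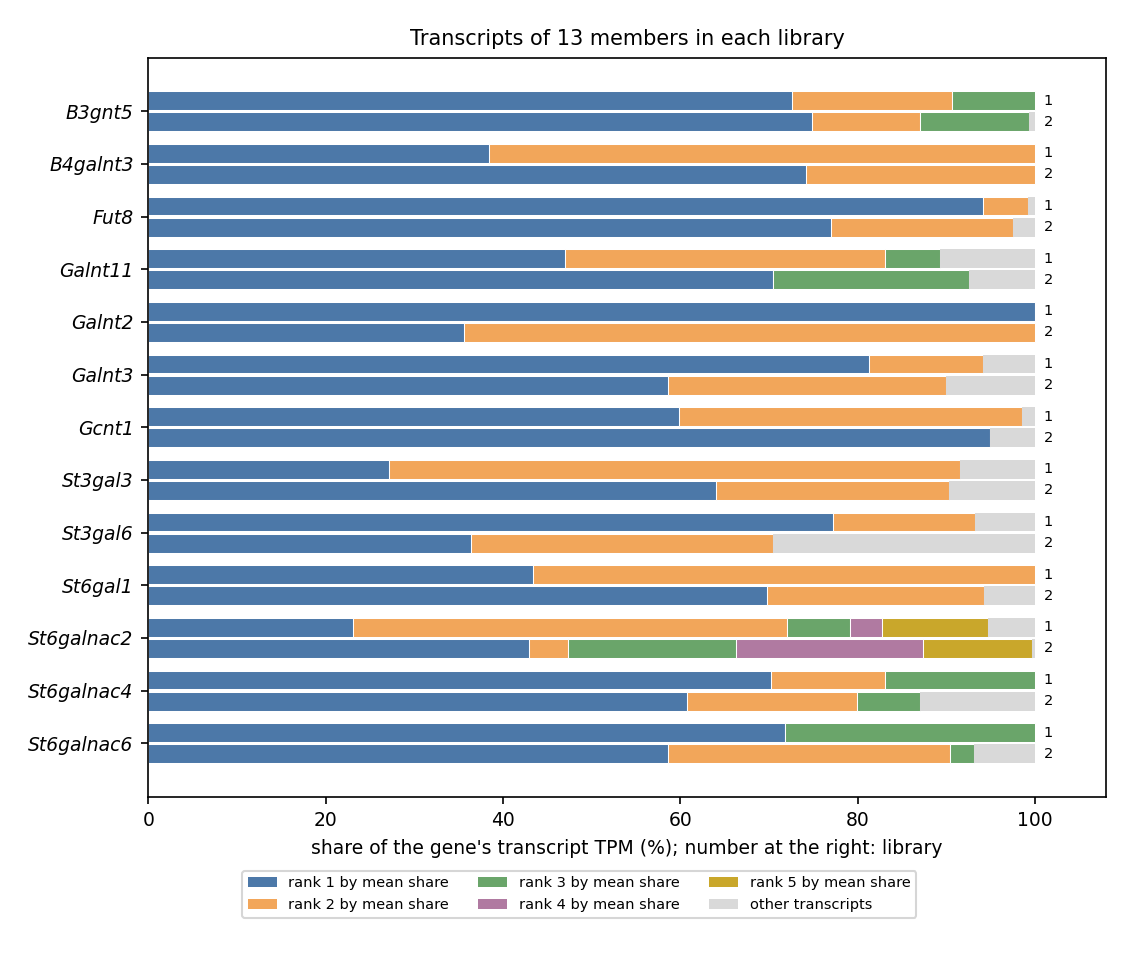
Share of each transcript in the gene's summed transcript TPM, in percent, for 13 enzymes, with library 1 above library 2 for each. Colours rank a gene's transcripts by mean share, grey stands for those under 10% mean share, and the St6galnac6 transcript of rank 2 appears in library 2 (31.9%) and not in library 1.

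The wider pathway was read from 6 lists of other genes, tested in the same way, and 36.9% of all genes were called higher and 28.1% lower. With the GC trend off these shares of all genes were 12.4% and 11.1%. Of the 9 polypeptide GalNAc-transferases outside the 39, 6 were tested, 3 were called higher and 2 lower. None of them was called with the GC trend off. The highest of them, Galntl6 (3.06 and 2.47 TPM), Galnt15 (1.72 and 2.57 TPM) and Galnt18 (0.11 and 3.79 TPM), lay below all 10 initiating enzymes described above in library 2, while in library 1 Galntl6 lay above Galnt2 and Galnt10 and Galnt15 lay above Galnt10. Galntl5 was listed at 0 counts in both. Their sum was 5.99 and 12.8 TPM, against 345 and 472 TPM for the 10. Both lists were drawn with earlier results of these data known, so this contrast is a description.

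Among 14 other core, extension and branching transferases, 12 were tested, 7 were called higher and 1 lower. With the GC trend off 2 were called higher and 1 lower. B3galt5, which makes type 1 chains, was the highest at 104 and 197 TPM and was not called (−0.22, −0.03 with the GC trend off). B4galt4, a further galactosyltransferase, stood at 28.8 and 36.4 TPM, and B4galnt1, the ganglioside GM2 synthase, at 0.22 and 50.3 TPM (higher, 6.62, and 1.77 with the GC trend off). Gcnt7 was listed at 0 counts in both libraries. B3galt5 was thus above each of the 4 extension enzymes in library 1 and below only B3gnt7 in library 2.

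Of 19 other fucosyl-, sialyl- and sulfotransferases, 17 were tested, 4 were called higher and 7 lower. With the GC trend off none was called higher and 1 lower. Casd1, the sialic acid O-acetyltransferase, led at 71.6 and 48.0 TPM (lower, −1.75, and not called with the GC trend off, −0.41). The galactose sulfotransferases Gal3st2 (7.45 and 37.1 TPM) and Gal3st1 (0.57 and 34.1 TPM) followed, and Gal3st3 was listed at 0 counts in both. Gal3st1 was called higher at 4.68 and not called with the GC trend off (−0.10).

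Of 28 genes found for the supply of nucleotide sugars and sulfate, all were tested, 9 were called higher and 7 lower. With the GC trend off 3 were called higher and 2 lower. Gfpt1, the entry enzyme of hexosamine synthesis, stood at 293 and 294 TPM, Gne, the entry enzyme of sialic acid synthesis, at 66.9 and 408 TPM, and the sulfate carrier Slc26a2 at 158 and 175 TPM. With the GC trend off none of these 3 was called, at 0.07, −0.20 and 0.17. Tsta3 and Fuk, the older symbols of Gfus and Fcsk in the fucose supply, are counted among the 28.

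Of 15 genes found for mucins and other mucus proteins, 11 were tested. On counts 6 were called higher and none lower, where 36.9% and 28.1% of all genes were, and with the GC trend off 7 were called higher and none lower, where 12.4% and 11.1% of all were. The trend-off values had a median log2 ratio of 1.24 where that of the 36 enzymes was −0.15. Muc2, the gel-forming mucin of the colon, stood at 2105 and 6464 TPM (log2 ratio 2.27, and 2.08 with the trend off), Zg16, a mucus lectin, at 472 and 10145 TPM (3.28 and 2.61) and Clca1, a mucus protease, at 1299 and 4031 TPM (0.46 and 1.24). Muc5ac, the stomach mucin, was listed at 0 counts in both. The list mixes mucins with other mucus proteins, and its mucins were also read alone, after their values were seen. With the trend off Muc2 and Muc3a (1.17) were called higher. Muc3 (0.50), Muc13 (0.48), Muc4 (−0.52) and Muc1 (−0.73) were not called. The difference between the lists was not tested.

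N-glycosylation served as a neighbouring pathway. Of 12 oligosaccharyltransferase subunits, 6 were called higher and 2 lower, where 36.9% and 28.1% of all genes were. With the GC trend off 1 was higher and none lower, where 12.4% and 11.1% of all genes were. Ost4 (79.1 and 176 TPM), Rpn2 (60.6 and 147 TPM) and Ostc (84.4 and 113 TPM) were the highest. The summed level of the 12 subunits was 467 and 1202 TPM, and that of the 39 O-glycosylation enzymes was 1435 and 3133 TPM. The lists differ in size, so these sums do not rank the pathways.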

How the data were processed

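Polyadenylated RNA was measured in 2 technical libraries of 1 group. The authors deposited a gene table and a transcript table for each, on mm10 with GENCODE M4 according to the accompanying text files. No source used here names the aligner, the quantifier or the strandedness of counting. Per the file headers, the authors' columns are expected counts (estimated counts, rounded here for tests), TPM, FPKM and, for transcripts, the percent of the gene's level. Lower and upper bounds for TPM are deposited too, without a stated confidence level, and were read only for transcripts. Some of these bounds do not hold the TPM value deposited with them.

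Library totals were 25843064 and 20681574 expected counts. Members and gene lists were chosen with earlier results of these data known. All 39 members are named, and of each pathway list outside them the 3 genes with the highest mean TPM and those at 0 counts in both libraries. Further mucins are named after their values were seen. The marker lists cover epithelium, goblet cells, colonocytes, smooth muscle, fibroblasts, endothelium, immune cells, enteric neurons and glia, and red blood cells. In library 2, the markers called higher and lower on counts (36.9% and 28.1% of all genes) were 6 and 1 of 10 epithelial, 7 and 0 of 9 goblet, 4 and 1 of 8 colonocyte, 7 and 0 of 8 smooth muscle, 2 and 2 of 8 fibroblast, 3 and 1 of 6 endothelial, 4 and 2 of 8 immune, 3 and 3 of 8 neuron and glia, and 5 and 0 of 5 red blood cell markers. With the GC trend off (12.4% and 11.1% of all genes) they were, in the same order, 3 and 2, 8 and 0, 2 and 0, 6 and 1, 1 and 3, 2 and 0, 5 and 0, 1 and 2, and 4 and 0.

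Genes whose expected counts averaged 10 or more were compared by a two-sided exact binomial test with TMM sizes from edgeR 4.0.16 under R 4.3.3 (1.35 for library 2 relative to library 1) and Benjamini-Hochberg adjustment; ratios used a prior count of 0.5. No residual degrees of freedom remain for edgeR's quasi-likelihood test. Trends with GC content or length were fitted by lowess (fraction 0.2, statsmodels 0.14.6) and taken off the expected ratio. A gene's GC content is that of its GENCODE M21 transcripts (GRCm38, the same assembly), weighted by TPM. The test was tried on simulated counts. Alternatives used DESeq2 1.42.0 size factors, totals of nuclear genes, other filters and folds, trends, TPM ratios, and TPM rescaled over nuclear protein-coding genes. Only positions from GENCODE M21 and RefSeq windows on GRCm38.p6 are printed.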

Additional observations from a re-analysis of the deposited data

How the results depend on the processing

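With 2 technical libraries of 1 mouse, no value here covers variation between animals. No paired analysis was possible because there is only 1 group. The count of enzymes higher in library 2 was 14 and became 2 with the GC trend off and 8 at 4-fold, and the count lower was 12 and became 5, 2 at 4-fold, and 2 on TPM. With totals of nuclear genes they were 16 and 10, as Chst4 and St3gal4 were then higher and Galnt5 and Gcnt4 not called. Of the other listed genes, 72 were higher and 29 lower, where 36.9% and 28.1% of all tested genes were. With the GC trend off these were 39 and 12, where 12.4% and 11.1% of all were. The lower count was 57 with no fold limit, 7 at 4-fold and 5 on TPM, where 5.29% of all genes were lower. These counts are not given as shares of the listed genes tested, so they are descriptions. Shares over all tested genes are not given for totals of nuclear genes, for 4-fold or without a fold limit. Counts under those settings are therefore descriptions without a background. The mean summed level of 2284 TPM was 4369 TPM when rescaled over nuclear protein-coding genes. Leaving out a library gave 1435 to 3133 TPM for that sum, 34 to 35 enzymes at 1 TPM or more (34 with both), 7 of 9 step leaders equal to the leader by mean, and 9 to 12 of 13 leading transcripts equal to the leader by mean. For those last comparisons the cause was not tested.

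Signs of log2 ratios turned in these cases, and the cause was not tested. With the GC trend off the ratio was 0.28 for Galnt1, −0.20 for Galnt6, 0.048 for Galnt7, −1.81 for Galnt12, 0.23 for C1galt1c1, −2.53 for B3gnt6, 0.077 for Gcnt1, 0.54 for Gcnt3, −0.24 for B3gnt3, −0.13 for B3gnt7, −0.21 for B4galnt2, −1.16 for St3gal2, −0.20 for St3gal4, −0.0014 for St6gal1, −1.19 for St6galnac4, −0.70 for St6galnac6 and −0.65 for Chst4. With the length trend off it was −0.12 for Galnt11, −0.014 for Galnt12, −0.62 for B4galnt2 and −0.27 for St6gal1. With totals of nuclear genes it was 0.067 for Gcnt3 and 0.062 for B4galt1. On TPM it was 0.96 for Gcnt3, 0.087 for Gcnt4, 0.95 for B4galt1 and 0.86 for Fut4, and with DESeq2 size factors −0.0089 for St6gal1.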
